A study of Mus musculus with 9 samples.

Results

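The genes described here are 10 markers of pericytes and vascular smooth muscle, the mural cells that wrap blood vessels. They were taken by symbol from a table of 56748 Ensembl genes, and all 10 were found, each as 1 row. The table holds raw read counts of RNA from the brain of mice at embryonic day 14 (E14), with 3 libraries from embryos exposed to valproic acid, 3 from embryos exposed to poly(I:C) and 3 from controls given saline. Valproic acid is an anticonvulsant that inhibits histone deacetylases, and poly(I:C) is a synthetic double-stranded RNA that mimics a viral infection. Exposure to either before birth is used as a mouse model of autism spectrum disorder. The controls are called wild type, and no strain, dose, day of exposure or litter is given. Nothing in the labels tells if each library stands for another embryo, so p-values measure the spread between these samples only, which may in part be technical.

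Pericytes sit on capillaries within the vessel's basement membrane and are drawn to new vessels by PDGF-B, which endothelial cells release and the receptor PDGFRB on the pericyte binds. Smooth muscle cells cover larger vessels and contract. Their contractile genes are switched on by serum response factor (SRF), which binds CArG boxes in the DNA, with its partner myocardin. In the embryonic brain vessels grow in from the surrounding meningeal plexus, and mural cells come with them and help to form the blood-brain barrier.

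Acta2 and Rgs5 were the only tested members called in any comparison with control, and both were lower under valproic acid. Their promoters are shown because both were called, and because the CArG box is an element by which smooth muscle genes are known to be regulated. The sequences are those of RefSeq on build GRCm38.p6, reach from 250 bases before the annotated start to 50 bases after it and run 5′ to 3′ on the gene's strand. Capitals mark a CArG-type box, searched here as CCNNNNNNGG in which at least 5 of the 6 central bases are A or T, a pattern that reads alike on both strands. This looser form was chosen after the strict form, with all 6 central bases A or T, gave no match among the 7 members that had a promoter window. The Acta2 window is chr19:34255324-34255623 on the minus strand and the Rgs5 window chr1:169655251-169655550 on the plus strand.
Acta2: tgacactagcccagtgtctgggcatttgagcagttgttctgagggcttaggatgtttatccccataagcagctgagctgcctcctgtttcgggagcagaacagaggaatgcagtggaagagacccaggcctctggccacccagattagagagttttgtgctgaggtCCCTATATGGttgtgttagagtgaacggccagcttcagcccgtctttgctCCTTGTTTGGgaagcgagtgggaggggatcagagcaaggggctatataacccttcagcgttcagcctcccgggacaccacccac
Rgs5: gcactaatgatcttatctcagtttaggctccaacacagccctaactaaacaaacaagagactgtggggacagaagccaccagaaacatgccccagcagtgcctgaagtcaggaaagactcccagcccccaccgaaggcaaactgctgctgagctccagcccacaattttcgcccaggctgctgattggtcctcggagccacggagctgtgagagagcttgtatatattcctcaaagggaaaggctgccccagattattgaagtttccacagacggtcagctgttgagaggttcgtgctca
The window of Acta2 held 2 such boxes, which begin 84 and 34 bases before the start, and that of Rgs5 held 0. Among 32851 promoter windows of the same 300-base length, 9.98% held at least 1 box and 0.822% held at least 2. In the strict form 1.63% of windows held a box. Of the 10 members 7 had a promoter window. None of these held a strict box, and 1, Acta2, held a box of the looser form. Pdgfrb, Tagln and Myh11 had no window and were not searched. Of the other contractile genes, 3 of 19 with a window held a strict box (Myl9, Vcl and Myl6), as did the actin relatives Acta1, Actc1 and Actg1. None of these was called in valproic acid against control, and Actc1 had too few reads to be tested. Such a match describes the letters of the window and is no evidence of binding. Its part in the values of Acta2 was not tested.

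Total counts ranged from 15399974 to 19883131 per library, and 17171 genes passed the filter on low counts. Of the 10 members 8 were tested and 2, Tagln and Cnn1, had too few reads. Xist, the RNA of the inactive X chromosome, stood at 979 to 1050 CPM (read counts scaled to a common library size) in 4 libraries, all those of valproic acid plus replicate 3 of poly(I:C). It was at 0.236 CPM or less in the others. Y-linked transcripts (Ddx3y, Uty, Kdm5d and Eif2s3y summed) were at 196 to 201 CPM in replicates 1 and 2 of poly(I:C) and of control, and at 0 in the other 5 libraries. Replicate 3 of poly(I:C) and of control thus differed from replicates 1 and 2 of its group and was no technical repeat of them. For the other libraries this remains unknown. Control replicate 3 had neither Xist nor Y-linked transcripts at these levels. Without it, the log2 change in valproic acid against control was -1.08 for Acta2 and -0.28 for Rgs5 (edgeR adjusted p = 0.0211 and 0.0277). Between valproic acid and control, sex-linked expression and exposure therefore cannot be told apart by the groups alone. A fit with Xist as a covariate takes its Xist slope almost wholly from replicate 3 against replicates 1 and 2 of poly(I:C). A fit with a Y-linked covariate takes its slope almost wholly from replicate 3 against replicates 1 and 2 of poly(I:C) and of control. Calls lost or kept in either fit therefore cannot tell exposure from sex.

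In level per length of exon, Vtn, Rgs5 and Pdgfrb stood above the other 7 members in every library, and on average Myh11, Cnn1 and Tagln were the lowest. Per kilobase (kb) of exon, the mean over the 9 libraries was highest for Vtn at 24.8 CPM per kb, a level that covered 22.0 to 31.3. Vtn (ENSMUSG00000017344, chromosome 11) encodes vitronectin, a matrix protein that brain pericytes secrete. Rgs5 (ENSMUSG00000026678, chromosome 1), a regulator of G protein signalling long used to mark pericytes, followed at 14.8 CPM per kb with a range of 12.9 to 17.5. Pdgfrb (ENSMUSG00000024620, chromosome 18) was at 8.67 CPM per kb with a range of 7.71 to 9.65, so these 3 levels did not overlap in any library.

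Abcc9 (ENSMUSG00000030249, chromosome 6), which encodes the sulfonylurea receptor subunit of an ATP-sensitive potassium channel, was at 2.55 CPM per kb, with a range of 2.08 to 3.31. Acta2 (ENSMUSG00000035783, chromosome 19), the actin of smooth muscle, was at 1.80 CPM per kb over a range of 0.863 to 2.54, which overlapped both its neighbours in the order. Cspg4 (ENSMUSG00000032911, chromosome 9), the NG2 proteoglycan of pericytes that oligodendrocyte precursors also carry, was at 1.26 CPM per kb. The place of Acta2 in the order depended on the group. Acta2 was at 1.04 ± 0.158 CPM per kb under valproic acid, 2.05 ± 0.321 under poly(I:C) and 2.31 ± 0.374 in control (mean ± SD, n = 3 each), against 1.19 ± 0.201, 1.39 ± 0.121 and 1.19 ± 0.108 CPM per kb for Cspg4 in the same groups.

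Des (ENSMUSG00000026208, chromosome 1), the intermediate filament desmin of muscle and pericytes, was at 0.450 CPM per kb. Myh11 (ENSMUSG00000018830, chromosome 16), the smooth muscle myosin heavy chain, was at 0.164, Cnn1 (ENSMUSG00000001349, chromosome 9), an actin-binding calponin, at 0.119 and Tagln (ENSMUSG00000032085, chromosome 9), the actin-binding protein SM22, at 0.0850 CPM per kb. Ranges of neighbours overlapped from Des downward. Over all 9 libraries there were 51 reads of Cnn1 and 27 of Tagln.

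**Figure D1:**
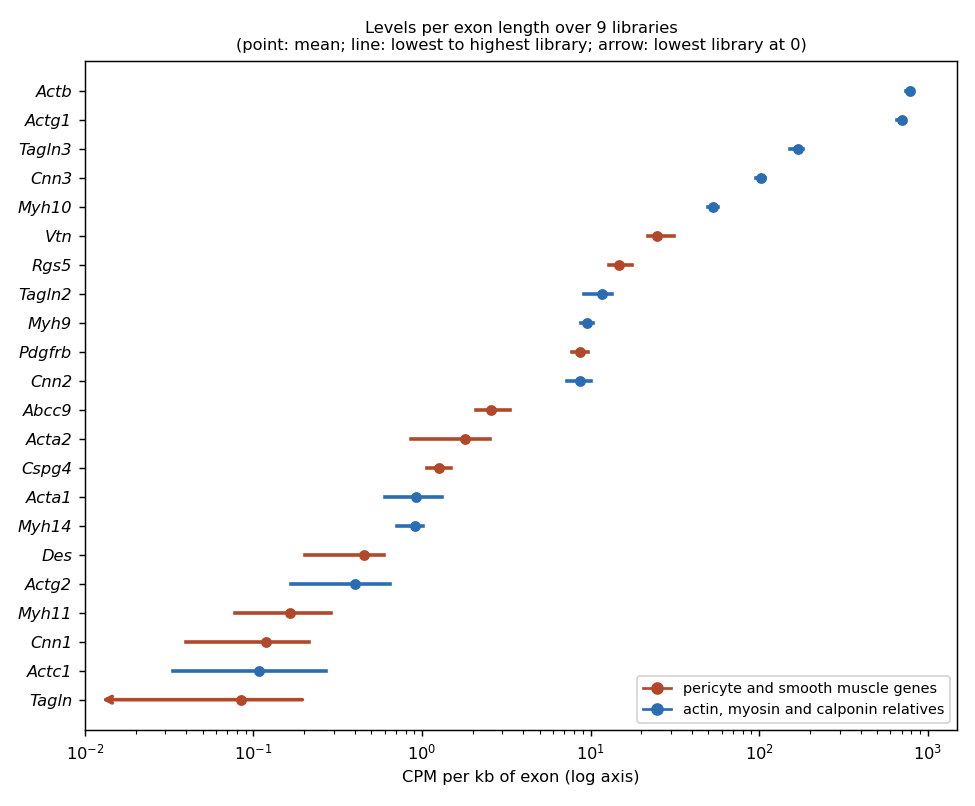
Level of each gene in CPM per kb of exon on a log axis, with the mean of 9 libraries as a point and the lowest to highest library as a line. Pericyte and smooth muscle genes are red and their actin, myosin and calponin relatives blue; Vtn, Rgs5 and Pdgfrb lead the red genes, and Tagln (arrow) reached 0 in its lowest libraries.

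Broadly expressed relatives of the contractile genes were far more abundant in this tissue. The cytoplasmic actins Actb and Actg1 stood at 784 and 707 CPM per kb, while the other muscle actins Acta1, Actg2 and Actc1 stood at 0.926, 0.402 and 0.108. Non-muscle myosins Myh10, Myh9 and Myh14 were at 53.0, 9.48 and 0.908 CPM per kb. Tagln3, the neuronal form of transgelin, was at 169 CPM per kb and Tagln2 at 11.7, and the calponins Cnn3 and Cnn2 at 102 and 8.64.

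Members shared little sequence with other genes, Tagln excepted. Of all 50-base stretches in the annotated transcripts of Acta2, 0.326% also occur in a transcript of another gene, among them Actg1, and for Myh11 the share was 0.340%, with Myh9 and Myh10. The share was 4.61% for Des, 1.95% for Abcc9 and 0% for Pdgfrb, Rgs5, Cspg4, Vtn and Cnn1. For Tagln it was 58.3%, because an antisense gene (Gm48529) and Pcsk7 lie across its exons on the opposite strand. Since the strand setting of the counting is not given in the sources used here, Tagln reads cannot be told from theirs.

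Acta2 fell under valproic acid, with the largest log2 change of the 8 tested members. It had 2.57, 2.39 and 1.90 CPM in valproic acid replicates 1 to 3 (44, 41 and 29 reads), 5.04, 4.77 and 3.71 CPM under poly(I:C) (93, 87 and 63 reads), and 4.13, 5.58 and 5.52 CPM in control (70, 99 and 111 reads). All valproic acid libraries lay below all others, while poly(I:C) and control overlapped. In valproic acid against control Acta2 averaged 2.28 ± 0.347 CPM and 5.07 ± 0.821 CPM (SD, n = 3 each), which is 2.22-fold lower (log2 change -1.15, SE 0.201, 95% interval -1.58 to -0.72, edgeR adjusted p = 0.00485).

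The call was kept when any 1 of the 6 libraries was left out, at an edgeR adjusted p of 0.0211 or less. With Y-linked expression as a covariate it was also kept (edgeR adjusted p = 0.0424). The slope of that fit rests on replicate 3 of poly(I:C) and of control, so it cannot tell exposure from sex. The call was lost with Xist as a covariate, where the change was -0.74 on the log2 scale (SE 0.344, edgeR adjusted p = 0.526). That fit rests on poly(I:C) replicate 3 for its Xist slope, so it cannot tell exposure from sex. Poly(I:C) replicate 3, the 1 library outside the valproic acid group that held Xist, had 3.71 CPM, above the highest valproic acid library at 2.57 CPM and below the other 5 poly(I:C) and control libraries at 4.13 to 5.58 CPM. In whole tissue, fewer cells of a type and less RNA per cell cannot be told apart.

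Rgs5 fell by a smaller margin. It had 58.4, 64.5 and 64.0 CPM under valproic acid (1002, 1108 and 980 reads), 66.5, 63.6 and 64.7 CPM under poly(I:C) (1228, 1159 and 1100 reads) and 79.7, 72.1 and 72.7 CPM in control (1352, 1279 and 1463 reads). The controls lay above every exposed library, and the exposed groups overlapped. Rgs5 averaged 62.3 ± 3.38 CPM under valproic acid and 74.8 ± 4.24 CPM in control (SD, n = 3 each), a log2 change of -0.26 (SE 0.0556, 95% interval -0.38 to -0.14, edgeR adjusted p = 0.0135). Without control replicate 1 the edgeR adjusted p was 0.0673, with the Y-linked covariate 0.109 and with Xist 0.468, so the call was lost in these 3 fits. The log2 change lay between -0.29 and -0.22 in all 15 alternatives.

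In valproic acid against control, 2 of 8 tested members were called, both lower and 0 higher, where 6.35% of all 17171 tested genes were called, 2.78% lower and 3.57% higher. The median log2 change was -0.0957 over the 8 tested members and -0.00328 over all tested genes. Groups that did not overlap were seen in 3 of the 8, Rgs5, Acta2 and Myh11, beside 25.6% of all tested genes.

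Myh11 showed the same direction as Acta2 from very few reads. It had 0.991, 0.757 and 0.588 CPM under valproic acid (17, 13 and 9 reads), 1.41, 2.19 and 0.706 CPM under poly(I:C) (26, 40 and 12 reads) and 1.71, 1.46 and 1.39 CPM in control (29, 26 and 28 reads). The valproic acid and control libraries did not overlap, and poly(I:C) replicate 3 lay within the valproic acid range. The log2 change of valproic acid against control was -0.95, with an SE of 0.389 and a 95% interval of -1.78 to -0.12, and it did not pass the threshold (edgeR adjusted p = 0.163). With Xist as a covariate its sign turned (0.39, edgeR adjusted p = 0.898), in a fit that leans on the 12 reads of poly(I:C) replicate 3.

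Pdgfrb, Abcc9, Vtn, Cspg4 and Des gave no call in valproic acid against control. Pdgfrb had 48.6, 49.5 and 51.0 CPM under valproic acid and 45.6, 52.9 and 45.3 CPM in control. Its log2 change was 0.05 with a 95% interval of -0.09 to 0.20 (edgeR adjusted p = 0.699), so a fall of the size seen for Acta2 lies outside that interval. Abcc9 had 17.4, 20.5 and 27.6 CPM under valproic acid and 19.2, 20.2 and 27.7 CPM in control, a log2 change of -0.04 with an interval of -0.37 to 0.28. In both groups replicate 3 was the highest.

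Vtn had 50, 46.4 and 63.6 CPM under valproic acid and 56.0, 51.3 and 49.5 CPM in control, a log2 change of 0.03 with an interval of -0.16 to 0.22. The spread in Vtn came from valproic acid replicate 3, the highest of the 9 libraries. Cspg4 averaged 14.2 ± 2.40 CPM under valproic acid and 14.2 ± 1.29 CPM in control, with an interval of -0.25 to 0.27 on the log2 scale. Des had 0.758, 2.21 and 1.5 CPM under valproic acid and 2.18, 1.58 and 1.24 CPM in control, and from 266 reads in all 9 libraries its interval was wide, at -0.91 to 0.61 on the log2 scale.

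Tagln had 0, 7 and 2 reads under valproic acid, 4, 1 and 4 under poly(I:C) and 3, 0 and 6 in control. A count of 0 allows up to 0.175 CPM in valproic acid replicate 1 and 0.169 CPM in control replicate 2, a limit for counting error only. Cnn1 had 10, 2 and 7 reads under valproic acid, 3, 2 and 4 under poly(I:C) and 6, 10 and 7 in control. The poly(I:C) libraries of Cnn1, at 0.110 to 0.235 CPM, lay below the controls at 0.348 to 0.563 CPM, with 2 to 10 reads per library in these groups. Without the filter on low counts its log2 change was -1.29 (SE 0.730, edgeR adjusted p = 0.689).

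**Figure D2:**
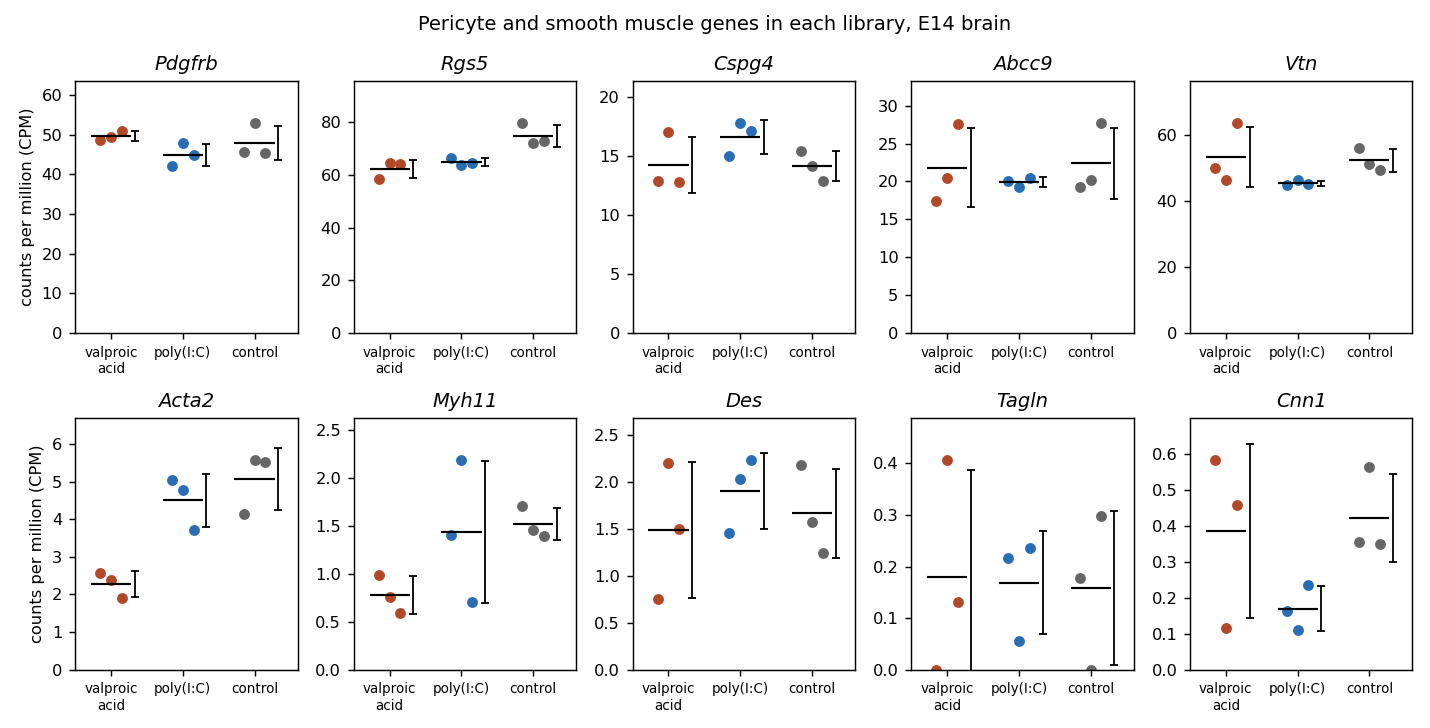
CPM of each of the 10 genes in the 9 libraries, with valproic acid, poly(I:C) and control from left to right, points for libraries in replicate order, a bar for the group mean and an error bar of 1 SD (cut at 0 for Tagln). Acta2 sits at 1.90 to 2.57 CPM under valproic acid, below its other libraries, and Rgs5 is highest in the controls.

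Relative to Pdgfrb, a comparison chosen after the values were seen, Acta2 gave 4.61 ± 0.803 reads per 100 Pdgfrb reads under valproic acid, 10.1 ± 1.83 under poly(I:C) and 10.6 ± 1.57 in control (mean ± SD, n = 3 each). The highest valproic acid library had 5.28 and the lowest of the other libraries 8.27. The ratio of these 2 genes thus shifted with the group, as a description without a test. Rgs5 gave 125 ± 4.96, 145 ± 12.2 and 157 ± 19.4 reads per 100 Pdgfrb reads in the same groups.

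Poly(I:C) against control gave 0 calls among the 8 tested members with edgeR, and 2, Rgs5 and Vtn, had an unadjusted p under 0.05. DESeq2 also gave 0. Of all tested genes 0.536% were called, 0.262% higher and 0.274% lower. Rgs5 averaged 64.9 ± 1.49 CPM under poly(I:C) and 74.8 ± 4.24 CPM in control (log2 change -0.20, SE 0.0552, 95% interval -0.32 to -0.09, edgeR adjusted p = 0.139), and all 3 poly(I:C) libraries lay below all controls. It was called only when genes with low counts were kept in the fit (edgeR adjusted p = 0.0299).

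Vtn had 44.7, 46.2 and 45.2 CPM under poly(I:C) and 56.0, 51.3 and 49.5 CPM in control, again without overlap (log2 change -0.20, edgeR adjusted p = 0.392). Groups did not overlap in these 2 of 8 tested members, beside 18.4% of all tested genes. Acta2 averaged 4.50 ± 0.705 CPM under poly(I:C) and 5.07 ± 0.821 CPM in control, and its interval of -0.57 to 0.22 on the log2 scale does not reach the change seen under valproic acid. Cspg4 had 15, 17.8 and 17.1 CPM under poly(I:C) and 15.4, 14.2 and 12.9 CPM in control, a log2 change of 0.23 (edgeR adjusted p = 0.471). Pdgfrb had 42.2, 47.8 and 44.8 CPM under poly(I:C), Abcc9 20.1, 19.2 and 20.4 CPM and Des 1.46, 2.03 and 2.24 CPM. These 3 and Myh11 overlapped between poly(I:C) and control, with log2 changes of -0.09 for Pdgfrb, -0.17 for Abcc9, 0.20 for Des and -0.07 for Myh11.

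**Figure D3:**
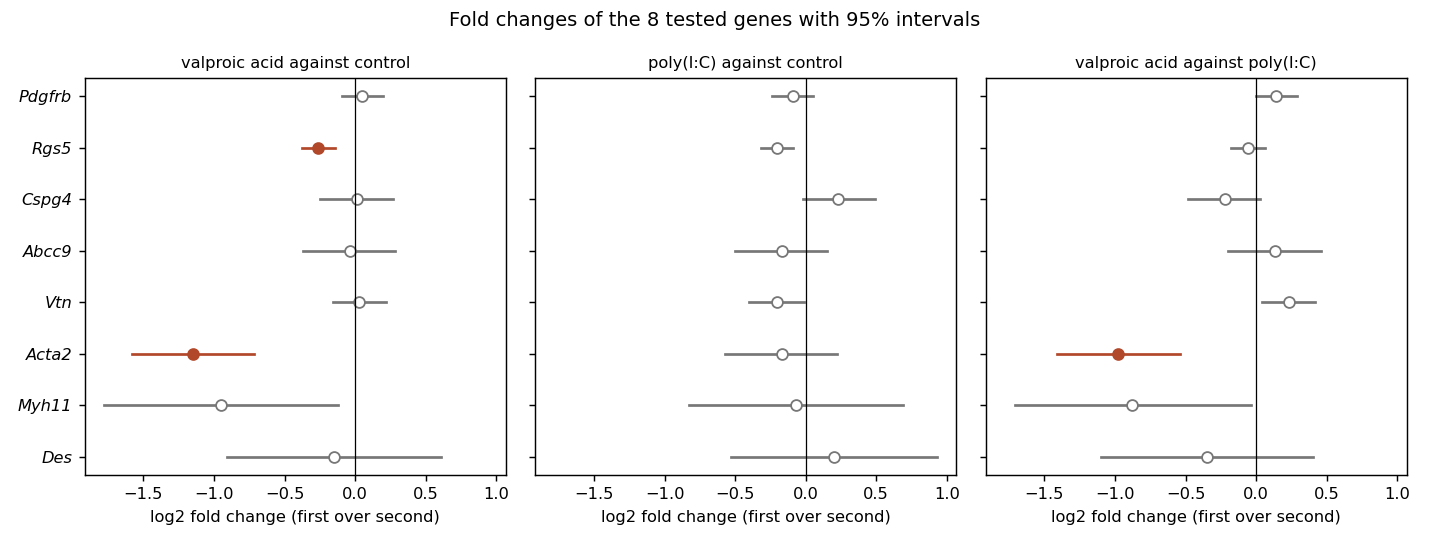
Log2 fold change of the 8 tested genes with its 95% interval, 1 panel per comparison and the group named first on top of the ratio. Filled red points passed an edgeR adjusted p of 0.05: Acta2 and Rgs5 in valproic acid against control and Acta2 in valproic acid against poly(I:C).

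Set directly against poly(I:C), valproic acid libraries were again lower in Acta2. Acta2 averaged 2.28 ± 0.347 CPM under valproic acid and 4.50 ± 0.705 CPM under poly(I:C), 1.97-fold lower (log2 change -0.98, SE 0.203, 95% interval -1.41 to -0.54, edgeR adjusted p = 0.0235). The call did not hold without poly(I:C) replicate 1 (edgeR adjusted p = 0.0723), poly(I:C) replicate 2 (0.0976) or valproic acid replicate 3 (0.0704), and with the Y-linked (0.161) or Xist (0.409) covariate. Of the 8 tested members 1 was called, and it was lower, beside 2.59% of all tested genes, 1.18% lower and 1.42% higher.

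Vtn, at 53.3 ± 9.06 CPM under valproic acid and 45.4 ± 0.760 CPM under poly(I:C), and Pdgfrb, at 49.7 ± 1.2 and 44.9 ± 2.76 CPM in the same groups, did not overlap between them, as was so for 3 of 8 tested members with Acta2 and for 21.9% of all tested genes. Neither was called (edgeR adjusted p = 0.212 and 0.296). Vtn was called only when genes with low counts were kept in the fit (edgeR adjusted p = 0.0197). Rgs5 did not separate these groups: its log2 change was -0.06 with an interval of -0.18 to 0.06. Both comparisons with control share the same 3 control libraries.

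Between the 8 tested members, correlations across libraries were of both signs. Over the 28 pairs of tested members the median Pearson r of log2 CPM across the 9 libraries was 0.0179, with 14 pairs above 0. The highest was Cspg4 with Des, at 0.807, and at 0.831 after the group means were removed. Next came Acta2 with Myh11, at 0.790, and at 0.541 without the group means. These are descriptions over 9 libraries that share groups and depth, and the reads of Des and Myh11 were few. At the mean counts, counting error alone gives a spread of 21.2% for Myh11, 18.4% for Des and 11.9% for Acta2. A low r therefore does not show that members vary apart. Outside the members, of 11325 genes with at least 5 CPM, the pattern of Acta2 was closest to Mllt11, Dram2 and Arl6 (r of 0.956, 0.955 and 0.952) and that of Pdgfrb to Zfp768, Acaa2 and Dctn4 (0.962, 0.956 and 0.952). By Spearman rank Mllt11 was at 0.8 with Acta2. The top of so many genes over 9 libraries is picked for being high, and these likenesses were not tested.

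Among other pericyte genes the calls were higher ones. Of 17 listed, 16 were tested, and 2 rose and 0 fell under valproic acid against control, with a median log2 change of 0.0733. The background for this and the other lists is the share of all tested genes called, 3.57% higher and 2.78% lower in valproic acid against control, and 1.42% higher and 1.18% lower in valproic acid against poly(I:C). Mcam, an adhesion molecule of vessel walls, rose to 42.5 ± 2.48 CPM under valproic acid, against 34.2 ± 1.80 CPM in control (edgeR adjusted p = 0.0161). Notch3, a Notch receptor that mural cells carry, rose to 78.0 ± 5.18 CPM under valproic acid, against 65.8 ± 3.08 CPM in control (edgeR adjusted p = 0.0401). Which cells the Notch3 reads came from was not tested. The call of Mcam was lost without control replicate 1 or 2 or valproic acid replicate 1 (edgeR adjusted p up to 0.0636) and with the Y-linked covariate (0.152). That of Notch3 held only without valproic acid replicate 1 when 1 library was left out (edgeR adjusted p up to 0.122), and was lost with the replicate number as a block (0.0555) and with the Y-linked covariate (0.233). Kcnj8, the channel pore that pairs with the product of Abcc9 and was looked up after its values were seen, was at 8.49 ± 1.37 CPM under valproic acid and 9.41 ± 1.62 CPM in control (edgeR adjusted p = 0.586).

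In poly(I:C) against control, edgeR called 0 of the 16 tested pericyte genes (median 0.0834). Notch3 was at 73.5 ± 6.15 CPM under poly(I:C) and 65.8 ± 3.08 CPM in control, and Ebf1, a transcription factor of mural and other cells, at 43.3 ± 2.05 and 40.7 ± 2.78 CPM in those groups. In valproic acid against poly(I:C) edgeR also called 0 of the 16. There the log2 change was 0.08 for Notch3 and -0.24 for Ebf1 (edgeR adjusted p = 0.567 and 0.0787). Ebf1 was called only with no filter on low counts (0.0318).

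Other contractile and actin cytoskeleton genes gave 0 calls of 18 tested in each of the 3 comparisons with edgeR, with medians of -0.0481 in valproic acid against control, -0.0569 in poly(I:C) against control and 0.00676 in valproic acid against poly(I:C). The most abundant were Flna, which encodes the actin crosslinker filamin A, at 459 ± 6.05 CPM under valproic acid, 446 ± 13.6 CPM under poly(I:C) and 441 ± 6.80 CPM in control, and Myl6, a myosin light chain of many cell types, at 236 ± 4.58, 246 ± 6.65 and 245 ± 5.48 CPM in the same groups. Myl9, the myosin light chain of smooth muscle and looked up after its values were seen, was at 8.69 ± 1.22 CPM under valproic acid and 11.6 ± 2.17 CPM in control (log2 change -0.41, edgeR adjusted p = 0.105). Of the actin relatives none was called: Acta1 was at 1.08 ± 0.202 CPM under valproic acid and 1.73 ± 0.302 CPM in control (edgeR adjusted p = 0.157), and Actb at 2060 ± 52.7 and 2130 ± 27.6 CPM in these groups (edgeR adjusted p = 0.345). Cnn3, the calponin of many non-muscle cells, rose 1.10-fold under valproic acid against control (edgeR adjusted p = 0.0372).

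Among 14 regulators of the contractile genes 11 were tested. Myocd, which encodes myocardin, gave 0 to 6 reads per library and was not tested, as were Gata6 and Nkx3-2. Srf was at 48.6 ± 4.12 CPM under valproic acid and 44.2 ± 1.90 CPM in control (edgeR adjusted p = 0.225; a gene looked up after its values were seen). In valproic acid against control 1 regulator fell and 1 rose, with a median of -0.0431. Mef2c, a transcription factor of muscle that neurons and endothelium use as well, fell to 98.3 ± 3.23 CPM under valproic acid, against 117 ± 7.78 CPM in control (edgeR adjusted p = 0.0222). Foxo4, a forkhead factor that can bind myocardin, rose to 45.4 ± 1.31 CPM under valproic acid, against 38.4 ± 2.61 CPM in control (edgeR adjusted p = 0.0312). The call of Mef2c was lost without control replicate 2 or 3 or valproic acid replicate 1 or 2 (edgeR adjusted p up to 0.0835), and that of Foxo4 without any library but control replicate 2 (up to 0.127) and with the Y-linked covariate (0.109). Foxo4 also lost its call when only the 6 libraries compared were fitted. Neuron markers, beside which Mef2c is read because neurons use it, summed to 5440 to 5790 CPM under valproic acid, 5760 to 6010 CPM under poly(I:C) and 5810 to 5920 CPM in control. Of these 7 markers 2, Stmn2 and Map2, fell in valproic acid against control. Radial glia markers summed to 1970 to 2050 CPM under valproic acid, 1860 to 1930 CPM under poly(I:C) and 1830 to 1860 CPM in control, and 2 of 7, Pax6 and Vim, rose in valproic acid against control. In valproic acid against poly(I:C) Map2 fell and Vim rose, and in poly(I:C) against control edgeR called 0 of either list. Their part in the values of Mef2c was not tested. EdgeR called 0 of the 11 in poly(I:C) against control and 0 in valproic acid against poly(I:C), with Mef2c at 103 ± 7.95 CPM and Tead1 at 98.2 ± 2.68 CPM under poly(I:C).

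Of 22 genes that recruit mural cells to vessels, all tested, only Lamc1 was called. Lamc1, a laminin chain of basement membranes, rose to 131 ± 11.1 CPM under valproic acid, against 105 ± 4.41 CPM under poly(I:C) and 110 ± 5.54 CPM in control (edgeR adjusted p = 0.0159 and 0.0240). The call against control was lost without control replicate 1 or 3 or valproic acid replicate 2 or 3, and that against poly(I:C) without poly(I:C) replicate 2 (edgeR adjusted p up to 0.0837 and 0.0823). Both were lost with the Y-linked covariate (0.134 and 0.101). Pdgfb, the ligand of Pdgfrb, looked up after its values were seen, was at 14.8 ± 2.40 CPM under valproic acid, 12.5 ± 0.702 CPM under poly(I:C) and 12.5 ± 0.591 CPM in control, without a call. The list's median log2 change was 0.0275 in valproic acid against control and -0.0320 in poly(I:C) against control, where edgeR called 0 of 22. Cdh2 and Itgb1, the most abundant of the list, were at 396 ± 3.66 and 190 ± 1.32 CPM under poly(I:C), against 388 ± 7.15 and 200 ± 2.13 CPM in control.

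Markers of other cells at the vessel wall are given beside these values. Summed endothelial markers were at 470 to 509 CPM under valproic acid, 443 to 469 CPM under poly(I:C) and 457 to 474 CPM in control. Of the 14, Pecam1, an adhesion molecule of endothelium, and Slc2a1, the glucose transporter of the blood-brain barrier, rose under valproic acid against control (1.18-fold and 1.17-fold, edgeR adjusted p = 0.0310 and 0.0240). Pecam1 lost its call without control replicate 1 or 3 or valproic acid replicate 2 or 3 (edgeR adjusted p up to 0.108), and Slc2a1 without control replicate 1 or 2 or valproic acid replicate 1 or 3 (up to 0.100) and with the Y-linked covariate (0.181). Pecam1 alone of the 14 was also called higher in valproic acid against poly(I:C). With 1 library left out, that call held only without poly(I:C) replicate 1 (edgeR adjusted p up to 0.127). It was also lost when the 6 libraries were fitted alone. Summed fibroblast and meningeal markers were at 801 to 1030 CPM under valproic acid, 726 to 767 CPM under poly(I:C) and 830 to 871 CPM in control. Against control 1 of these 14, Crabp2, rose under valproic acid (1.39-fold, edgeR adjusted p = 0.0165, up to 0.0539 without control replicate 2 or valproic acid replicate 1 and 0.0616 with the Y-linked covariate), and against poly(I:C) 5 rose, among them the collagen genes Col1a1 (1.35-fold, edgeR adjusted p = 0.0111) and Col3a1 (1.27-fold, edgeR adjusted p = 0.0293). Lum and Cyp1b1 were 1.36-fold and 1.47-fold higher under valproic acid than under poly(I:C) (edgeR adjusted p = 0.0235 and 0.0257). With 1 library left out, Col1a1 kept its call in 6 of 6 fits, Cyp1b1 in 3 and Lum and Col3a1 each only without valproic acid replicate 2. With the Y-linked covariate all 4 lost their calls (edgeR adjusted p = 0.0773 for Col1a1, 0.216 for Cyp1b1, 0.135 for Lum and 0.112 for Col3a1). In the fit with Xist as a covariate, whose Xist slope rests almost wholly on poly(I:C) replicate 3, the named genes of these lists lost their calls. Their part in the values of the mural genes was not tested.

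**Figure D4:**
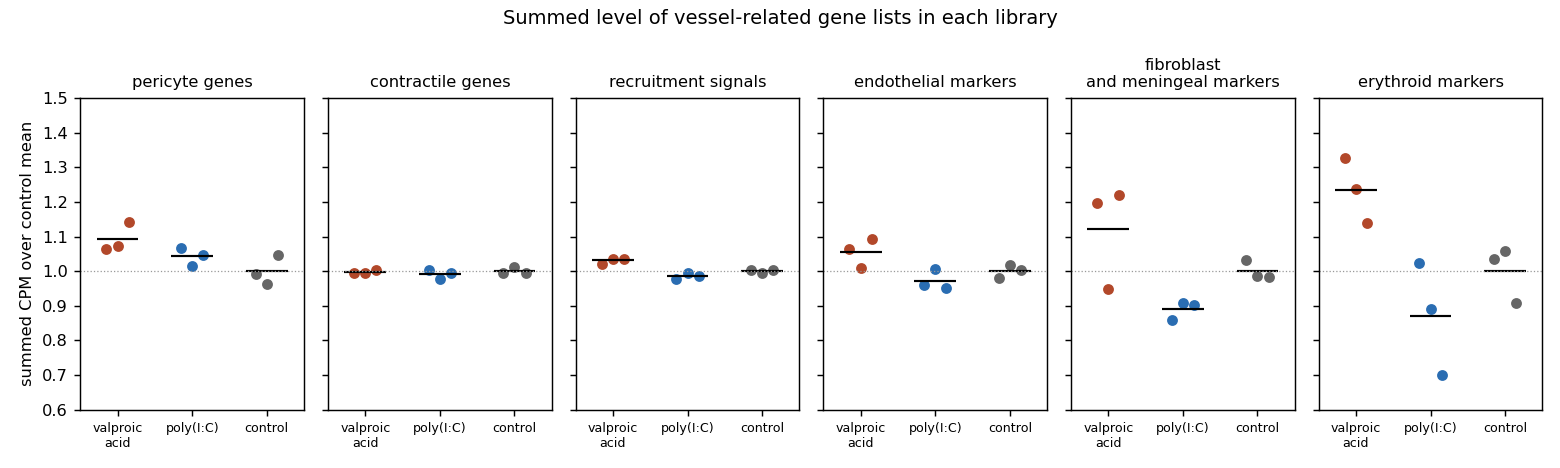
Summed CPM of 6 gene lists in each library, divided by the mean of the 3 controls, with valproic acid, poly(I:C) and control from left to right and a bar for the group mean. Summed contractile genes, at 1010 to 1020 CPM under valproic acid and 1010 to 1030 CPM in control, overlap between the groups, and most of that sum is Flna and Myl6, so it shows little of scarce genes such as Myl9. The erythroid list is highest under valproic acid.

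Erythroid markers, carried by blood in the vessels, summed to 2250 to 2620 CPM under valproic acid, 1380 to 2020 CPM under poly(I:C) and 1790 to 2090 CPM in control. Of the 10, 4 rose in valproic acid against control, 8 in valproic acid against poly(I:C) and 0 in poly(I:C) against control. Microglia markers summed to 99.5 to 116 CPM under valproic acid, 106 to 112 CPM under poly(I:C) and 119 to 126 CPM in control, with 2 of 11 lower under valproic acid than in control. Oligodendrocyte precursor markers, of interest for Cspg4, summed to 96.7 to 113 CPM under valproic acid, 104 to 110 CPM under poly(I:C) and 107 to 115 CPM in control, with edgeR calling 0 of 7 in each comparison. Skeletal and cardiac muscle markers, of interest for Des, summed to 5.95 to 6.76 CPM under valproic acid, 4.93 to 8.17 CPM under poly(I:C) and 6.2 to 6.96 CPM in control. Only 5 of those 13 were tested, and the muscle determination gene Myf5 was at 0 in all 9 libraries. The part of these cells in the mural gene values was not tested.

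**Figure D5:**
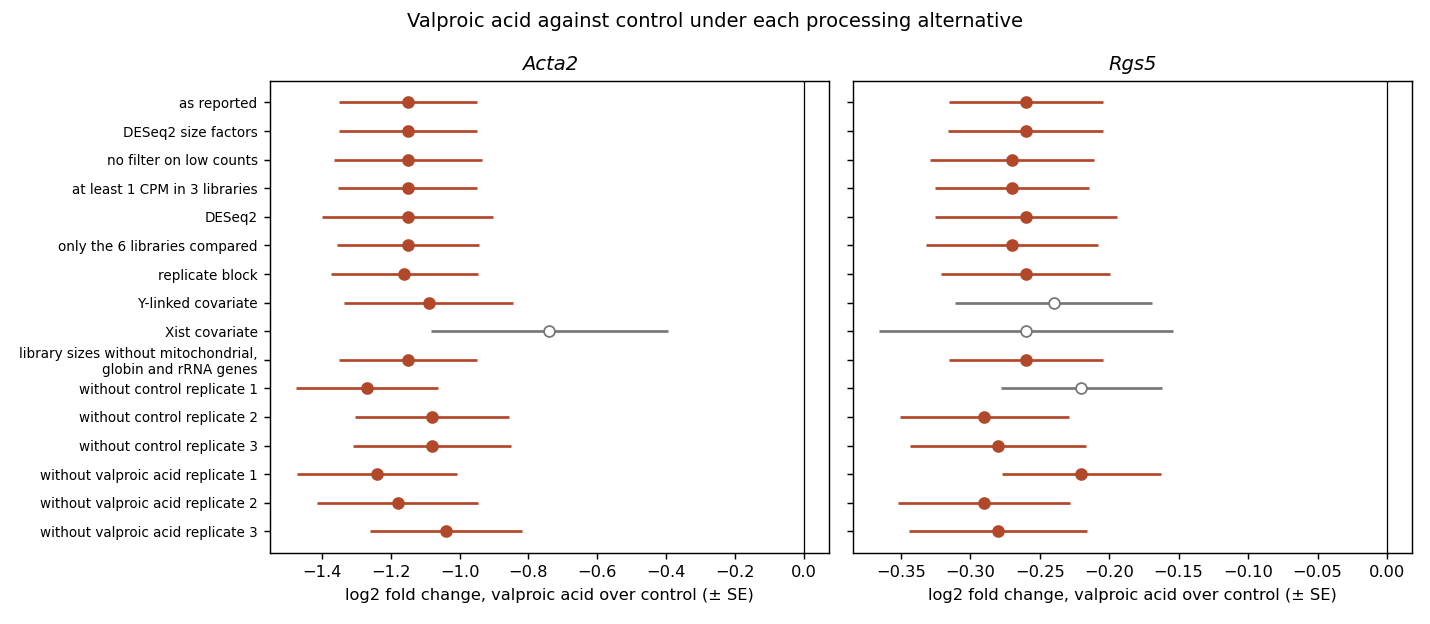
Log2 fold change of Acta2 and Rgs5 in valproic acid against control (± SE) as reported and under each processing alternative, with filled red points past an edgeR or DESeq2 adjusted p of 0.05. Acta2 stays called in all but the fit with Xist as a covariate, and Rgs5 loses its call in 3 fits.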

How the data were processed

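RNA was depleted of ribosomal RNA before library construction, per the labels' protocols. The authors deposited raw read counts per Ensembl gene. Reads were mapped with HISAT2 and the build was GRCm39 (mm39), per the submitters' processing notes, while the counting tool and its strand setting were not given in the sources used here. Symbols, exon lengths (union of exons) and transcripts come from GENCODE M21, made on an earlier build, which gave no symbol for 4623 genes.

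From the deposited counts, edgeR 4.0.16 under R 4.3.3 removed low genes (filterByExpr with a minimum count of 10 and a minimum total of 15) and scaled libraries by TMM factors between 0.978 and 1.02. The 9 libraries entered 1 fit with a mean per group. Each pair of groups was compared with the two-sided quasi-likelihood F-test, and a gene was called when its p, adjusted by Benjamini and Hochberg over the 17171 tested genes, was under 0.05. CPM was computed with TMM factors, and correlations from log2 CPM with a prior count of 2. No pair of libraries of a group was a copy: the chi-square of their counts, divided by its degrees of freedom, was 3.95 to 6.46.

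Alternatives were DESeq2 1.42.0, its size factors, other filters on low counts, other library sizes, the 6 libraries compared alone, a replicate block, a Y-linked or Xist covariate, and each library left out.

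The members and lists were chosen with earlier results of these data known. All 10 members are named. Genes of the pericyte, contractile, regulator, recruitment, endothelial and fibroblast lists were picked per comparison. These were up to 4 called genes with the smallest adjusted p, or up to 2 of the highest mean CPM where none was called. Of the uncalled picks, Kdr, Col1a2 and Col3a1 in poly(I:C) against control are not described above. The other marker lists are given as sums and counts. The 3 genes closest in pattern to Acta2 and to Pdgfrb were also named.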

Additional observations from a re-analysis of the deposited data

How the results depend on the processing

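Of the members, edgeR called 2 in valproic acid against control, 0 in poly(I:C) against control and 1 in valproic acid against poly(I:C). With no filter on low counts these became 2, 1 and 2, with the Y-linked covariate 1, 0 and 0, and with the Xist covariate 0, 0 and 0. With 1 library left out they ranged over 1 to 2, 0 to 0 and 0 to 1.

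Of all genes, 1090, 92 and 445 were called in these comparisons, in the same order. With no filter the counts were 1661, 464 and 1057. The Y-linked covariate gave 272 and 111 in the comparisons of valproic acid with control and with poly(I:C), and the Xist covariate 19, 42 and 39 in all 3. The Xist fit leans on poly(I:C) replicate 3 for its slope, and the Y-linked fit on replicate 3 of poly(I:C) and of control. DESeq2 gave 170 in poly(I:C) against control. Leaving out 1 library gave 467 to 789, 38 to 63 and 113 to 294. The causes were not tested.

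Pairing by replicate number was weak at most: same-numbered deviations correlated at -0.0416 to 0.131, and different-numbered ones at -0.0906 to 0.0483. The highest, 0.131, was between replicate 3 of poly(I:C) and of control, both without Y-linked transcripts. With a replicate block 2, 0 and 1 members and 912, 88 and 344 genes were called.

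The sign of some uncalled log2 changes turned. With the Xist covariate Myh11 was at 0.39, 0.25 and 0.14 and Flna at -0.0036, -0.0029 and -0.00067 in the 3 comparisons, and Cspg4 at -0.06 in valproic acid against control. Abcc9 was at -0.06 in valproic acid against poly(I:C) with the Y-linked covariate. With 1 library left out, valproic acid against control ranged over -0.14 to 0.08 for Cspg4, -0.24 to 0.15 for Abcc9, -0.56 to 0.17 for Des and -0.12 to 0.12 for Vtn. Poly(I:C) against control ranged over -0.51 to 0.24 for Myh11 and -0.27 to 0.01 for Abcc9, and valproic acid against poly(I:C) over -0.07 to 0.27 for Abcc9. Poly(I:C) against control ranged over -0.0022 to 0.04 for Flna, -0.02 to 0.02 for Myl6, -0.0022 to 0.05 for Tead1 and -0.01 to 0.07 for Slc2a1, and valproic acid against poly(I:C) over -0.01 to 0.08 for Tead1.

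Depth limits Tagln, Cnn1, Myh11 and Des, each with at most 266 reads in all.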
